A study of Heterocephalus glaber and Mus musculus with 9 samples.

Results

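Chemokines that lay out the splenic white pulp, with their receptors and upstream regulators, were compared between naked mole-rat (NM-R, Heterocephalus glaber) and mouse spleens. The 9 genes were Cxcl13, Cxcr5, Ccl19, Ccl21, Ccr7, Lta, S1pr1, S1pr3 and Nkx2-3. They were chosen by symbol, ignoring case, and make up 9 of the 12946 genes of the table. All 9 symbols were listed, each in 1 row. Ccl21 was the only one of them listed at 0 in every mouse.

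Bulk spleen RNA was sequenced from 9 animals, 1 library per animal. The mice were 3 wild-type C57Bl/6N males aged 2 months. The NM-Rs were healthy and fell into animals with a small spleen (ssNM-R) and animals with an enlarged spleen (lsNM-R). The ssNM-Rs were the males numbered 2, 3 and 6, aged 30, 26 and 23 months. The lsNM-Rs were number 1 (male, 24 months), number 4 (female, 29 months) and number 5 (male, 23 months). No animal had been treated. NM-Rs were housed warmer than mice and were older, and their reads were aligned to another genome and counted on another annotation. Species, age, housing and reference therefore cannot be told apart in any comparison of NM-Rs with mice.

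The white pulp is the lymphoid part of the spleen, in which B cells gather in follicles and T cells gather around the central arteriole. Stromal cells of the follicle release CXCL13, which draws B cells through the receptor CXCR5, and stromal cells of the T zone release CCL19 and CCL21, which draw T cells and dendritic cells through CCR7. Lymphotoxin made by lymphocytes keeps these stromal cells producing chemokines, sphingosine 1-phosphate receptors hold B cells in the marginal zone and let lymphocytes leave for the blood, and the homeobox factor NKX2-3 patterns the spleen stroma and its vessels.

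The table gives, for every gene, reads scaled by the size factor of the library, called normalized counts here. The libraries held between 7815326 and 18387599 reads (median 10965902). The NM-R libraries fell into 3 shallow ones (lsNM-R 1, ssNM-R 2 and ssNM-R 3) and 3 deep ones (lsNM-R 4, lsNM-R 5 and ssNM-R 6), so the depth class crosses the cohorts. The lymphocyte markers differed between the species in the same direction as most of the 9 genes. All 11 B cell markers of the table were lower in NM-Rs, with summed counts of 59809 to 61339 in mice and 3291 to 7392 in NM-Rs. All 14 T cell markers were lower too, with sums of 17822 to 19461 and 3312 to 7970. All 6 dendritic cell markers were lower, with sums of 5351 to 6880 and 771 to 1206. Of 9 stromal fibroblast markers, 3 were higher, 3 were lower and 3 did not pass the test, with sums of 11784 to 13651 in mice and 12111 to 20465 in NM-Rs. Of 9 endothelial markers, 2 were higher, 3 were lower and 4 did not pass, with sums of 8780 to 11473 and 6468 to 7338. No marker of these 5 lists was at 0 in any whole group. All 7 erythroid markers were higher in NM-Rs, with sums of 15353 to 34132 in mice and 77064 to 120161 in NM-Rs, and so were all 5 granulocyte markers, with sums of 6242 to 7948 and 23947 to 41598. Of 6 smooth muscle markers, 3 were higher, 1 was lower and 2 did not pass, and of 6 liver and pancreas markers 2 were higher, 1 was lower and 3 did not pass. The part of these other cells in the results below was not tested.

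Of the 8 genes that could be compared with mice, all 8 were lower in NM-Rs when the mean of both cohorts was tested (limma adjusted p under 0.05). The paper had already reported all 8 as lower in NM-R spleens from these same data. This count was therefore known beforehand and is not independent of the choice of genes. Of all genes tested, 38.8% were called lower in this comparison, so that a lower level was common. The median log2 fold change was -3.25 over the 8 genes and 0.01 over all genes. In ssNM-Rs alone 7 of 8 were lower (37.5% of all genes) and in lsNM-Rs alone 8 of 8 were lower (37.0% of all genes). These comparisons share the same mice. For 7 of the 8 genes every NM-R spleen lay below every mouse spleen, which held for 36.2% of all genes. Nkx2-3 was the exception. In bulk tissue, fewer cells of a type and less RNA per cell cannot be told apart, and this applies to every gene below.

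**Figure D1:**
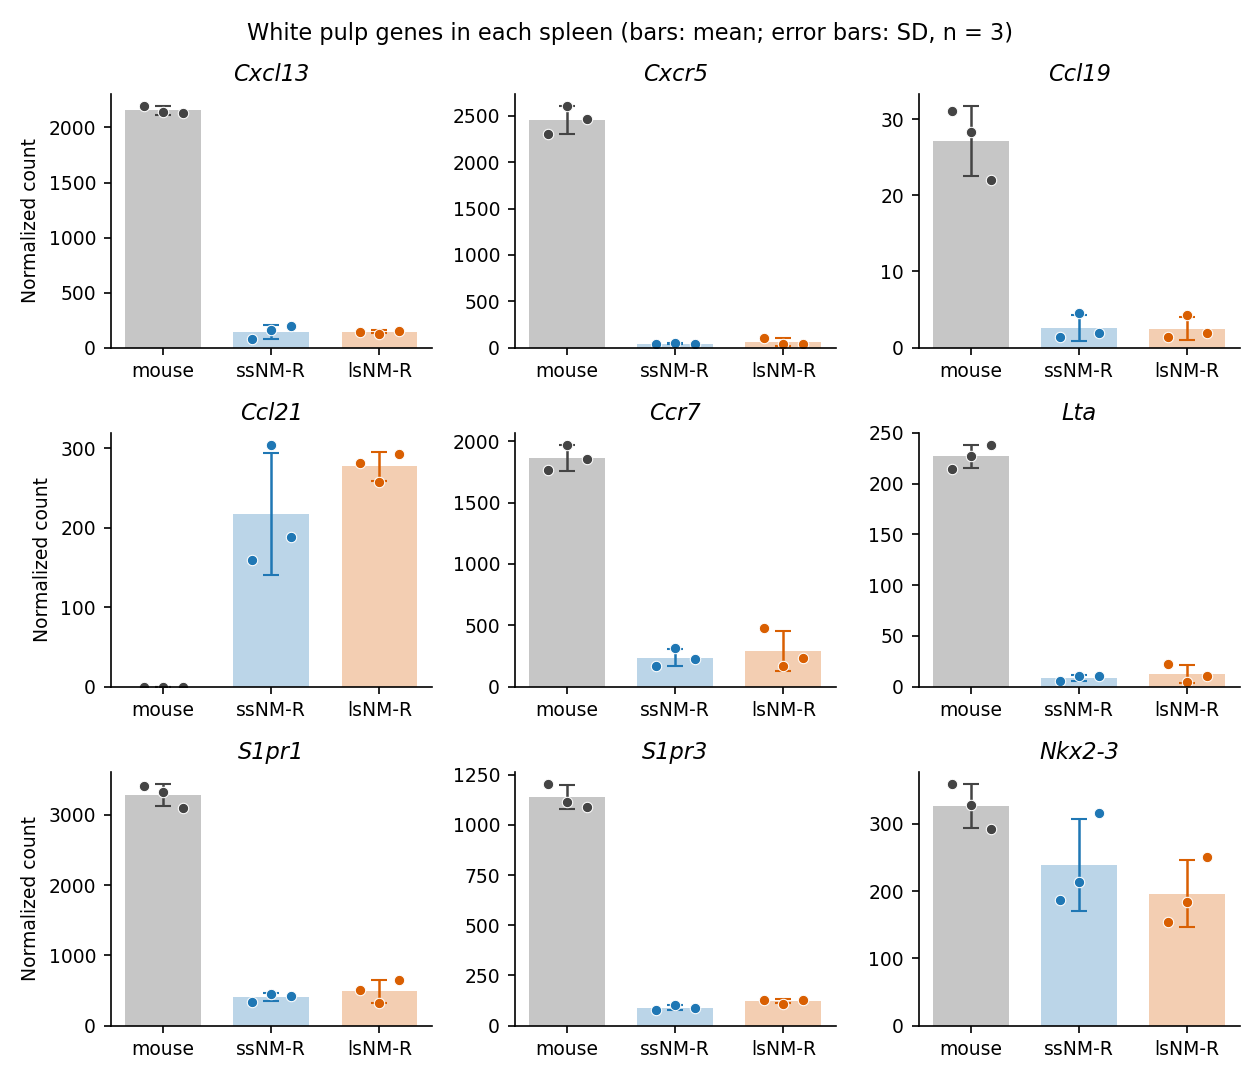
Normalized counts of the 9 genes in each spleen, 1 panel per gene with its own linear axis starting at 0, for mice, ssNM-Rs and lsNM-Rs. Points are animals, bars are group means and error bars are the SD (n = 3). The NM-R points lie below all mouse points for 7 genes, Nkx2-3 overlaps, and Ccl21 is at 0 in the mice only.

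Cxcl13, the chemokine of the B cell follicle, is a gene of 4 exons at chr5:96385945-96390086 of the mouse build mm9. Its normalized counts were 2199, 2138 and 2128 in mice 1, 2 and 3. They were 75.2, 159 and 200.3 in ssNM-R 2, 3 and 6, and 145, 128 and 154 in lsNM-R 1, 4 and 5. The mice lay close together and far above every NM-R, and the lsNM-Rs all lay inside the wider range of the ssNM-Rs. The mouse mean was 15.0 ± 4.31 times the NM-R mean (SD from both groups, n = 3 and 6). The log2 fold change was -3.96 (95% interval -4.52 to -3.39, limma adjusted p = 3.04e-07). The lowest mouse was 10.6 times the highest NM-R.

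Cxcr5, the receptor for CXCL13 on mature B cells and follicular helper T cells, lies at chr9:44319871-44334504 of mm9 on the minus strand. It had 2307, 2609 and 2462 normalized counts in mice 1, 2 and 3. It had 41.0, 51.0 and 40.4 in ssNM-R 2, 3 and 6, and 106, 38.1 and 38.3 in lsNM-R 1, 4 and 5. All NM-Rs were far below the mice, and lsNM-R 1 stood above the other NM-Rs. Cxcr5 had the lowest fold change of the 8 genes, at -5.63 (95% interval -6.29 to -4.97, limma adjusted p = 8.52e-08). Of all genes, 1.79% had a lower log2 fold change. The mouse mean was 46.9 ± 24.0 times the NM-R mean, and the lowest mouse was 21.8 times lsNM-R 1. Without lsNM-R 1 the log2 fold change was -5.87.

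The ratio of ligand to receptor counts differed between the species. Cxcl13 counts per Cxcr5 count were 0.820 to 0.953 in mice and 1.37 to 4.95 in NM-Rs, without overlap. The lowest NM-R ratio was that of lsNM-R 1. Transcript lengths of the NM-R genes were not used, so any difference in length between the species is part of this ratio and of every fold change with mice.

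The DNA just upstream of Cxcl13 is shown because lymphotoxin acts on this chemokine gene through NF-kB. The window is the 250 bases before the start of the longest coding transcript, 5′ to 3′ on the strand of the gene, in mm9. Capitals mark a match to GGGNNNNNCC, a loose form of the NF-kB site that was searched on both strands.
Cxcl13, chr5:96385695-96385944, plus strand: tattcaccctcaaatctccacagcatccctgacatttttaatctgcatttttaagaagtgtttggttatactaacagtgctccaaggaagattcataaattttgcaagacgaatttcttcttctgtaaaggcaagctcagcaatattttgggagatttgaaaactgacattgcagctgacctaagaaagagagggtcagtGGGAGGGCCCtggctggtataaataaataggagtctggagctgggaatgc
The Cxcl13 window held 1 match, beginning 50 bases before the start. Of the 7 mouse genes whose windows were searched, 5 held a match, Ccr7 and S1pr3 being without one. Of 22367 protein-coding genes, 49.1% held one in the 250 bases before the gene start. A match is a run of letters and not evidence of binding, and NM-R promoters were not analysed here.

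Ccl19, a T zone chemokine, lies at chr4:42768057-42770109 of mm9 on the minus strand. It had 31.1, 28.3 and 22.0 normalized counts in mice 1, 2 and 3. It had 1.37, 4.5 and 1.90 in ssNM-R 2, 3 and 6, and 1.41, 4.23 and 1.88 in lsNM-R 1, 4 and 5. Both species were low and did not overlap. These counts stand for 78 reads over the 3 mice and 17 reads over the 6 NM-Rs, and 5 of the 6 NM-R libraries held 3 reads or fewer. The ratio of the species was 10.7 (95% exact interval 6.28 to 19.3, counting error only). The log2 fold change was -3.06 (95% interval -3.90 to -2.22, limma adjusted p = 3.30e-05), and ranged from -3.42 in DESeq2 to -2.10 when 5 in place of 1 was added before taking logs.

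The mouse count of Ccl19 rests on sequence that mm9 holds more than once. Each of the 354 windows of 100 bases that lie inside its exons has an exact copy elsewhere in mm9. The labels give reads of 100 bases, paired. None of the windows of the other 7 mouse genes had such a copy. The copies lie on chromosome 4, some in the annotated Ccl19-ps1 and Ccl19-ps3, and on 1 unplaced contig. The window below is the first 100 bases that lie wholly inside coding exon 2, shown 5′ to 3′ on the minus strand because it is a read length of Ccl19 that the genome cannot place.
Ccl19, chr4:42768733-42768832: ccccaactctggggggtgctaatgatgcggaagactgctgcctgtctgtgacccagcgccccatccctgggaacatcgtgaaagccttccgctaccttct
No base is in capitals, since no base separates the 6 loci of chromosome 4 that hold this run. The gene also overlaps 4930578G10Rik on the other strand. How reads that fit several places were treated, and with which strand setting they were counted, is not given in the sources used here, and windows across exon junctions were not searched. The mouse level of Ccl19, and hence its fold change, is uncertain for this reason.

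Ccl21, the other T zone chemokine, was listed at 0 in mice 1, 2 and 3. It had 160, 305 and 188 normalized counts in ssNM-R 2, 3 and 6, and 281, 257 and 293 in lsNM-R 1, 4 and 5. The NM-R values rest on 117 to 468 reads per library, and ssNM-R 2 and ssNM-R 6 were the lowest. The zero in mice cannot be read as the level of a mouse gene. The mouse annotation has no gene called Ccl21 and 3 genes called Ccl21a, Ccl21b and Ccl21c, whereas the RefSeq annotation of the NM-R has 1 Ccl21. Of the rows analysed here Ccl21 is the only one with a Ccl21 symbol, so no fold change with mice is given. Ccl21 was 1 of 351 rows at 0 in every mouse (2.71% of the table), and it ranked 12 among them by its NM-R mean. A symbol of the mouse annotation was carried by 243 of these rows.

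The 3 mouse genes are nearly the same sequence, which bears on how their reads can be counted. They lie at chr4:42786392-42787525 (Ccl21a), chr4:41774204-41775337 (Ccl21b) and chr4:42391951-42393082 (Ccl21c) of mm9. Over 399 coding bases Ccl21a differs from each of the others at 2 positions, T84A and C194T, counted from 1 at the first base of the start codon, with the Ccl21a base first. Ccl21b and Ccl21c do not differ there. Coding bases 70 to 210 are shown for Ccl21a and Ccl21b, with the differing bases in capitals, and those of Ccl21c are the same as Ccl21b.
Ccl21a: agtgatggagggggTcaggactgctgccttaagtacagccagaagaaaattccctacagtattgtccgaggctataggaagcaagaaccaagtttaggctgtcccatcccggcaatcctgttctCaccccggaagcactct
Ccl21b: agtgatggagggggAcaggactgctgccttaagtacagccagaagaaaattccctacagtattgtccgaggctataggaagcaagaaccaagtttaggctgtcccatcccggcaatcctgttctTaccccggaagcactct
Of the exon windows of 100 bases, 474 of 474 in Ccl21a, 474 of 474 in Ccl21b and 472 of 472 in Ccl21c have an exact copy elsewhere in mm9. The mouse T zone ligands are thus either not analysed here or counted on repeated sequence, and the species comparison of the CCR7 arm rests on the receptor.

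Ccr7, the receptor for CCL19 and CCL21 on naive T cells, B cells and migrating dendritic cells, lies at chr11:99005510-99016391 of mm9 on the minus strand. It had 1766, 1973 and 1852 normalized counts in mice 1, 2 and 3. It had 171, 312 and 226 in ssNM-R 2, 3 and 6, and 479, 169 and 235 in lsNM-R 1, 4 and 5. All NM-Rs lay below all mice, and lsNM-R 1 was again the highest NM-R. The mouse mean was 7.03 ± 3.13 times the NM-R mean. The log2 fold change was -2.91 (95% interval -3.57 to -2.25, limma adjusted p = 8.14e-06).

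The balance of the receptors also differed between the species. Cxcr5 counts per Ccr7 count were 1.31 to 1.33 in mice and 0.163 to 0.240 in NM-Rs, without overlap. In lsNM-R 1, the NM-R with the highest counts of both receptors, the ratio was 0.221 and lay inside the range of the other NM-Rs. Ccl21 counts per Ccr7 count were 0.587 in lsNM-R 1 and 0.832 to 1.53 in the other NM-Rs.

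Lta, the secreted lymphotoxin subunit that also pairs with lymphotoxin beta on the lymphocyte surface, lies at chr17:35340110-35342296 of mm9 on the minus strand. It had 215, 227 and 238 normalized counts in mice 1, 2 and 3. It had 5.47, 10.5 and 10.1 in ssNM-R 2, 3 and 6, and 22.6, 4.23 and 10.7 in lsNM-R 1, 4 and 5. The species did not overlap, and lsNM-R 1 was the highest NM-R. The NM-R values rest on 4 to 17 reads per library. The species ratio from the summed reads was 23.0 (95% exact interval 17.8 to 30.1, counting error only), and the log2 fold change was -4.47 (95% interval -5.41 to -3.52, limma adjusted p = 4.82e-06).

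S1pr1, the sphingosine 1-phosphate receptor through which lymphocytes leave lymphoid tissue and which endothelium also carries, lies at chr3:115413351-115417973 of mm9 on the minus strand. It had 3414, 3332 and 3102 normalized counts in mice 1, 2 and 3. It had 343, 447 and 428 in ssNM-R 2, 3 and 6, and 508, 317 and 647 in lsNM-R 1, 4 and 5. All NM-Rs were below all mice, and the lsNM-Rs spanned the whole range of the ssNM-Rs. The mouse mean was 7.32 ± 1.99 times the NM-R mean. The log2 fold change was -2.91 (95% interval -3.34 to -2.47, limma adjusted p = 4.03e-07).

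S1pr3, a receptor for the same lipid found on marginal zone B cells and on endothelium, lies at chr13:51503987-51518166 of mm9 on the plus strand. It had 1206, 1115 and 1092 normalized counts in mice 1, 2 and 3. It had 77.9, 104 and 87.2 in ssNM-R 2, 3 and 6, and 127, 110.0 and 126 in lsNM-R 1, 4 and 5. All 3 groups were apart, with the mice highest and the ssNM-Rs lowest. The mouse mean was 10.8 ± 2.13 times the NM-R mean, and the log2 fold change was -3.44 (95% interval -3.72 to -3.17, limma adjusted p = 7.37e-09). It had the smallest standard error of the 8 genes, at 0.12. S1pr1 counts per S1pr3 count were 2.83 to 2.99 in mice and 2.88 to 5.13 in NM-Rs, and overlapped through lsNM-R 4.

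Nkx2-3 lies at chr19:43686815-43690381 of mm9 on the plus strand. It had 359, 328 and 293 normalized counts in mice 1, 2 and 3. It had 187, 213 and 316 in ssNM-R 2, 3 and 6, and 154, 183 and 251 in lsNM-R 1, 4 and 5. The lsNM-Rs were below all mice, while ssNM-R 6 lay above mouse 3. The mouse mean was 1.5 ± 0.431 times the NM-R mean. The log2 fold change was -0.62 (95% interval -1.07 to -0.17, limma adjusted p = 0.0160) against the mean of both cohorts.

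The call on Nkx2-3 depended on single animals. It was lost without mouse 1 (-0.55, adjusted p = 0.0684) and without mouse 2 (-0.61, adjusted p = 0.0508). In ssNM-Rs alone the log2 fold change was -0.48 (95% interval -0.997 to 0.033, limma adjusted p = 0.0810), and it passed without ssNM-R 6 (-0.70, adjusted p = 0.0134). In lsNM-Rs alone it was -0.76 (95% interval -1.27 to -0.24, limma adjusted p = 0.0129), and it was lost without lsNM-R 1 (-0.60, adjusted p = 0.0507).

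**Figure D2:**
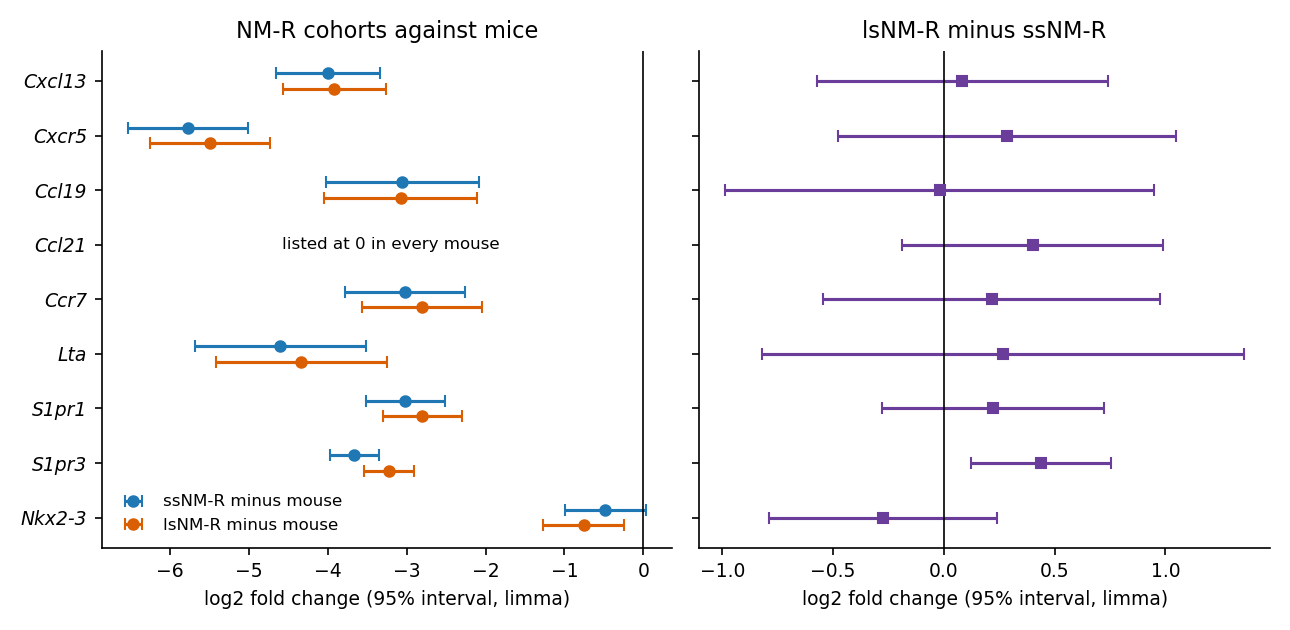
Log2 fold changes with 95% intervals from limma, in ssNM-Rs and lsNM-Rs against mice (left) and in lsNM-Rs against ssNM-Rs (right, on its own axis). On the left 7 genes lie at -2.80 or lower in both cohorts and Nkx2-3 near 0. On the right only the S1pr3 interval leaves out 0.

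Within mouse spleens the genes can be ranked per kilobase of the longest coding transcript. Cxcl13 had the highest level, 1835 ± 32.5 normalized counts per kilobase (SD, n = 3). S1pr1 (1084 ± 53.3) followed, and then Ccr7 (942 ± 52.5) and Cxcr5 (941 ± 57.8), whose ranges overlapped. S1pr3 (254 ± 13.5) came next, Lta (164 ± 8.44) and Nkx2-3 (155 ± 15.8) overlapped, and Ccl19 was lowest at 36.4 ± 6.24. The place of Ccl19 is uncertain, since its exons lie on sequence that mm9 holds more than once. No such ranking was made in NM-Rs, whose transcript lengths were not used.

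Between lsNM-Rs and ssNM-Rs none of the 9 genes was called in limma, edgeR or DESeq2. Of all 12946 genes, 0% were called in limma and in edgeR and 0.440% in DESeq2. The paper, which used DESeq2 at the same threshold, also reported a small set of genes between the cohorts. At an unadjusted p under 0.05, S1pr3 alone of the 9 passed, against 1138 of all genes (8.79%). S1pr3 was 1.35 ± 0.223 times as high in lsNM-Rs, with a log2 fold change of 0.44 (95% interval 0.12 to 0.75, limma adjusted p = 0.463). It was the only one of the 9 whose cohorts did not overlap, which 13.1% of all genes showed. The adjusted p of S1pr3 ranged from 0.278 to 0.863 over the alternatives.

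The other intervals between the cohorts were wide. For Ccl21 the log2 fold change was 0.40 (95% interval -0.19 to 0.99). For Cxcl13 it was 0.08 (-0.57 to 0.74), for Cxcr5 0.29 (-0.48 to 1.05) and for Ccr7 0.22 (-0.55 to 0.98). For Lta it was 0.27 (-0.82 to 1.35), for S1pr1 0.22 (-0.28 to 0.72), for Nkx2-3 -0.28 (-0.79 to 0.24) and for Ccl19 -0.02 (-0.99 to 0.95). A change of the size seen against mice lies outside the interval of each of the 7 genes other than Nkx2-3 that could be compared, while smaller differences between the cohorts cannot be told from the spread of 3 animals per cohort.

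Pairs of the 9 genes differed in how far they varied together across the 6 NM-R spleens. Over these spleens, as log2 values, Pearson's r was 0.95 between Ccr7 and Lta, 0.90 between Ccr7 and Cxcr5 and 0.81 between Lta and Cxcr5. For S1pr1 it was 0.73 with Lta, 0.58 with Ccr7 and 0.29 with Cxcr5. It was 0.89 between S1pr3 and Ccl21, 0.45 between S1pr3 and Cxcr5 and 0.11 between Cxcl13 and its receptor Cxcr5. These values describe 6 points that share library and depth. For Cxcr5, Ccr7 and Lta, lsNM-R 1 was the highest spleen, and it also had the highest summed B cell and T cell markers of the NM-Rs (7392 and 7970). Cxcr5 was also split by depth, at 41.0 to 106 in the 3 shallow NM-R libraries and 38.1 to 40.4 in the 3 deep ones. The part of lymphocyte content and of depth in these values was not tested.

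The genes whose pattern over the 6 NM-R spleens was most like that of each member were read from 9584 genes that averaged at least 50 normalized counts there. They were Pde1b (r = 0.994), Tvp23a and Tmem185a for Cxcr5, and Scn4a (0.991), Fcho1 and Taf1b for Ccr7. For Cxcl13 they were Tmem199 (0.983), Cp and Dbnl, and for Ccl21 M6pr (0.992), Dhx57 and Patz1. For S1pr1 they were Sv2b (0.985), Notch3 and Ift27, for S1pr3 Rcsd1 (0.986), Ubqln2 and Alox5ap, and for Nkx2-3 Emc10 (0.998), Arhgef17 and Hax1. With 6 spleens many genes reach such values, from 39 genes above 0.9 for S1pr1 to 234 for Nkx2-3.

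Each gene was next set against markers of B cells, T cells, stromal fibroblasts or endothelium, to see whether it differed by as much as those markers did. The fibroblast and endothelial lists cover these cells in general. They do not measure the follicle and T zone stromal cells that make the chemokines. For each spleen the mean log2 value of the marker list was subtracted from the log2 value of the gene, and mice were compared with NM-Rs by a two-sided exact permutation test. With 3 mice against 6 NM-Rs the smallest p is 0.0238. Of 15 pairs of gene and list, 14 reached it, with an adjusted p of 0.0255 over the 15 pairs. The share of all genes that would reach it against these lists was not computed. Without markers subtracted, every NM-R spleen lay below every mouse spleen for 36.2% of all genes. Nothing particular to these genes follows from the count. The marker lists were themselves different between the species, so the pairs compare 1 difference with another.

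Relative to B cell markers, Cxcr5 differed by a further -1.77 on the log2 scale. It lay at -0.93 to -0.74 in mice and at -2.93 to -2.26 in NM-Rs, lower in 6 of 6 NM-Rs (exact permutation p = 0.0238, adjusted p = 0.0255). S1pr1 differed the other way, by 0.95, at -0.50 to -0.36 in mice and -0.0044 to 1.12 in NM-Rs (exact permutation p = 0.0238, adjusted p = 0.0255), and by 0.46 when the median of the list replaced its mean. S1pr3 differed by 0.42 with overlap (exact permutation p = 0.0714), and by -0.08 with the median. Lta differed by -0.61 (exact permutation p = 0.0238, adjusted p = 0.0255), by -1.10 with the median, and by -0.16 (adjusted p = 0.429) when 5 in place of 1 was added before taking logs.

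Relative to T cell markers, Ccr7 differed by a further -0.64, at 0.58 to 0.72 in mice and -0.36 to 0.27 in NM-Rs. S1pr1 differed by -0.65, so that its difference pointed up against B cell markers and down against T cell markers. Lta differed by -2.20, at -2.39 to -2.38 in mice and -5.15 to -4.11 in NM-Rs. All 3 had an adjusted p of 0.0255 in the exact permutation test. With the median of the list, Ccr7 differed by -1.13, S1pr1 by -1.14 and Lta by -2.69.

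Relative to stromal markers, both chemokines were lower in NM-Rs, by an amount that depended on the summary of the fibroblast list. Cxcl13 differed by -3.90 from stromal fibroblast markers, at 1.68 to 1.75 in mice and -2.64 to -1.90 in NM-Rs, and by -4.04 from endothelial markers. Ccl19 differed by -3.0 and -3.15, with the limits on its count given above. With the median of the fibroblast list in place of its mean, Cxcl13 differed by -2.43 and Ccl19 by -1.54. S1pr1 and S1pr3 differed from endothelial markers by -3.0 and -3.53. All 6 values from list means had an adjusted p of 0.0255 in the exact permutation test. Both values from the fibroblast median had an adjusted p of 0.0298 in that test.

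Nkx2-3 differed by -0.56 from stromal fibroblast markers and by -0.71 from endothelial markers (exact permutation adjusted p = 0.0255 for both). With the median of the list in place of its mean these were 0.90 and -0.43 (adjusted p = 0.0765 for both), so the direction against the fibroblast list turned with the summary used.

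**Figure D3:**
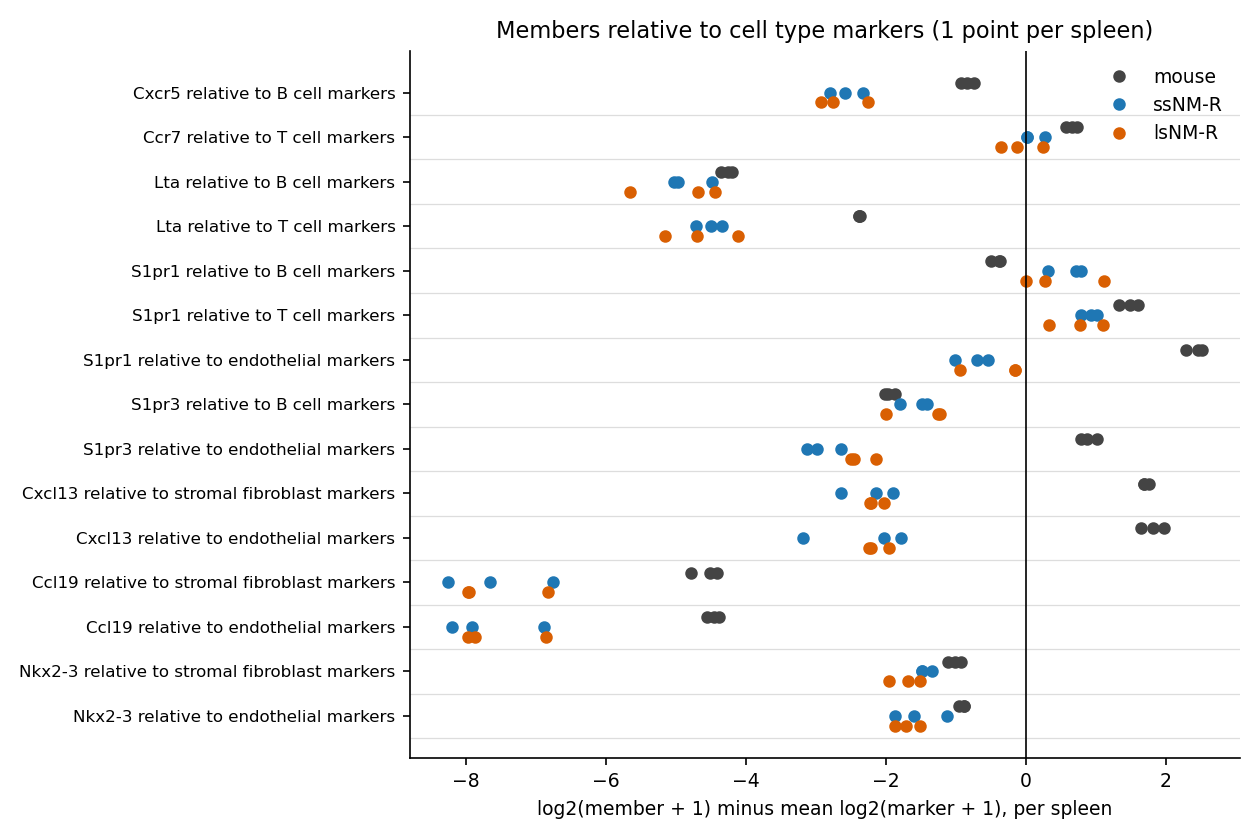
Log2 value of each gene minus the mean log2 value of a marker list, on the x axis, for 15 pairs of gene and list, with 1 point per spleen. Mice and NM-Rs do not overlap in 14 pairs, and the share of all genes doing so was not computed. S1pr1 against B cell markers is the pair among these 14 in which the NM-Rs lie to the right of the mice.

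Other genes of the same systems were described from lists of known pathway members. Their counts are read beside the 38.8% of all genes called lower and the 39.7% called higher in NM-Rs, and nothing particular to a list follows from them. Of 13 other homing chemokines and receptors in the table (of 20 listed), 10 were lower in NM-Rs, 1 was higher and 2 did not pass, with a median log2 fold change of -1.93. Ccl5, which attracts effector lymphocytes, fell from 1909 ± 228 in mice (SD, n = 3) to 30.9 ± 18.2 in NM-Rs (SD, n = 6), a log2 fold change of -6.07. Cxcl9 (-4.39) and its receptor Cxcr3 (-4.14) fell too. Cxcr4 (-0.75) and Ackr3 (-0.86), the receptors for CXCL12, fell less. Ccl2, a monocyte attractant, rose from 11.8 ± 2.70 to 37.2 ± 16.7 (1.46).

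Of 16 genes of the lymphotoxin and alternative NF-kB pathway (of 18 listed), 14 were lower, 1 was higher and 1 did not pass, with a median of -1.33. The receptor of the lymphotoxin heterotrimer, Ltbr, was the one that rose, from 511 ± 10.3 to 1140 ± 201, with a log2 fold change of 1.14 (limma adjusted p = 4.03e-05). It thus moved opposite to its ligand subunit Lta. The B cell survival receptor Tnfrsf13c fell the most (-4.62), followed by its ligand Tnfsf13b (-3.13) and the RANK gene Tnfrsf11a (-2.95). The kinase Chuk (-0.47) and the adaptor Traf2 (-0.48) fell the least. Ltb, the partner of Lta, was not analysed here.

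Of 9 further genes of sphingosine 1-phosphate signalling (of 12 listed), 7 were lower, 1 was higher and 1 did not pass, with a median of -2.05. These include Sgpp2, listed at 0 in all 6 NM-Rs and at 9.78 to 23.1 normalized counts in mice, and whether the annotation used for NM-R reads held this gene was not tested. Without it 6 of 8 were lower, with a median of -1.66. The receptors S1pr5 (-3.09) and S1pr2 (-1.04) fell, as did the phosphatase Sgpp1 (-2.80) and the ceramidase Asah1 (-1.28). The kinase Sphk2, which makes the lipid, rose (0.58).

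Of 4 genes of the oxysterol system that places B cells at the follicle edge (of 5 listed), 3 were lower and 1 did not pass, with a median of -1.38. Those that fell were the receptor Gpr183 (-2.86) and the enzymes Cyp7b1 (-1.63) and Cyp27a1 (-1.14). Of 15 genes of spleen patterning and niche adhesion (of 19 listed), 8 were lower, 2 were higher and 5 did not pass, with a median of -0.52. Nkx2-5, a homeobox gene related to Nkx2-3, rose from 81.6 ± 10.2 to 271 ± 86.1 (1.65, limma adjusted p = 0.000366). Nkx3-2 (-1.77), the adhesion genes Icam1 (-2.02) and Itgal (-2.01), and the Notch ligand Dll1 (-0.52) fell. Madcam1, a known target of NKX2-3, was not analysed here. Between lsNM-Rs and ssNM-Rs limma and edgeR called 0 of the 57 genes of these 5 lists, with 7 at an unadjusted p under 0.05 in each tool, and DESeq2 called 1, Ackr3.

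**Figure D4:**
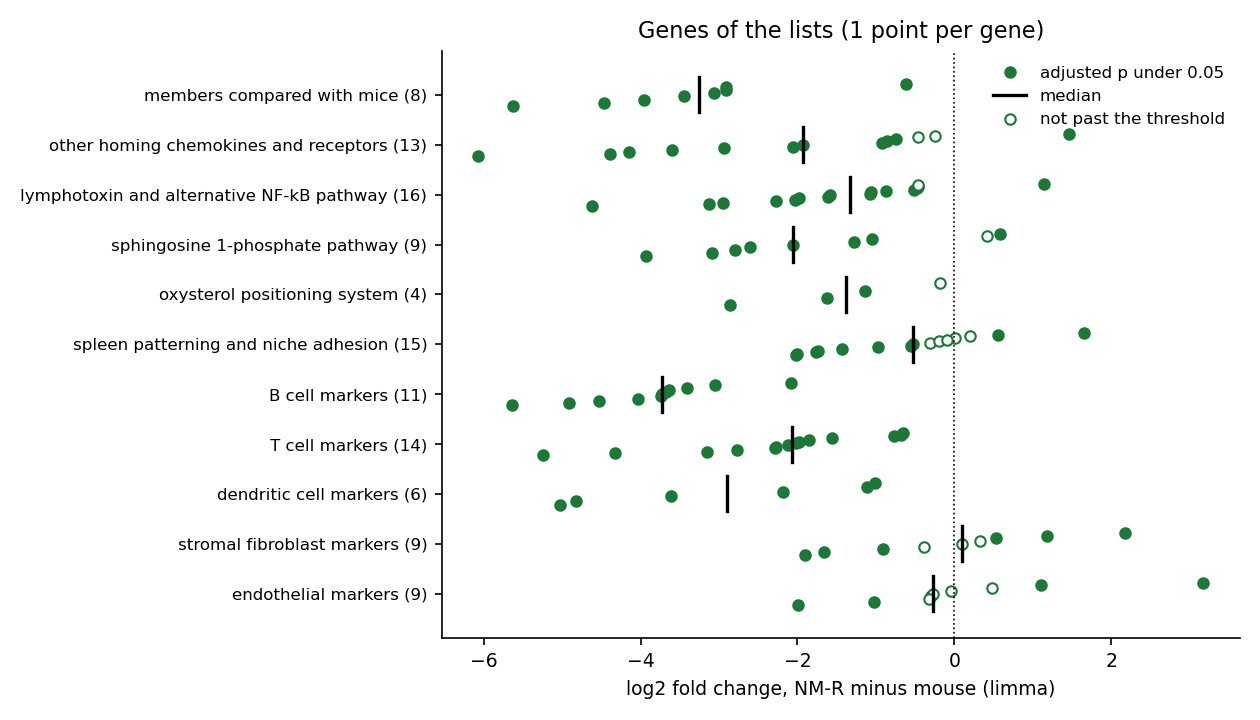
Log2 fold change of NM-Rs against mice (limma) for the 8 genes and for each gene of 5 pathway lists and 5 marker lists, 1 point per gene, with the median as a bar and the number of genes in brackets. Filled points passed an adjusted p of 0.05. The lymphocyte and dendritic cell lists lie wholly below 0, and the stromal fibroblast and endothelial lists lie on both sides of 0.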

How the data were processed

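Spleen RNA of 3 mice, 3 ssNM-Rs and 3 lsNM-Rs was measured, with groups taken from organism and spleen size in the labels. Labels and paper disagree on the sequencer (HiSeq or NovaSeq), the libraries (mRNA or total RNA) and the kit maker (Qiagen or Promega). Per the submitters' notes, the authors used STAR 2.5.3a, HTSeq 0.10.0, DESeq2 and, for mice, mm9. NM-R genes were given mouse names. The deposited signal values are read counts divided by 1 DESeq2 size factor per library. In each library 100% of values were whole multiples of 1 step, within 0.0001 of a read, which returned whole reads. In mouse 1 that step was close to 1. The table held 1025 rows with an NM-R identifier alone.

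In R 4.3.3, limma 3.58.1 was run on log2(normalized count + 1) over 9 spleens, each group with its own mean, with trended moderation and 2-sided tests. Benjamini-Hochberg adjustment covered all genes, with a threshold of 0.05. A fold change on this scale understates that of low genes. Members were set against marker lists by exact permutation over spleens. Recovered reads were tested in edgeR 4.0.16 and DESeq2 1.42.0 as alternatives. Other alternatives were pseudocounts of 0.5 and 5, a minimum mean of 10 normalized counts, rescaling to equal totals or upper quartiles, no trend, only the compared groups, leaving out each spleen, and a block for replicate number. A term for NM-R depth class was added after seeing the data. The script was checked on simulated data. Intervals on reads cover counting error only.

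Loci, coding bases and exon windows came from the GENCODE M1 annotation and the mm9 genome, searched with BLAST 2.17.0. Members and lists were chosen with earlier results of these data known. Named were the 9 genes, in each pathway list the 3 highest and 3 lowest fold changes among genes called, and the 3 genes most like each member that averaged at least 20 normalized counts in NM-Rs. One gene that this rule names and one upstream window are not reported here.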

Additional observations from a re-analysis of the deposited data

Results flagged for a closer look

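In 2 cases 1 NM-R spleen stood apart from the other 5 by more than Dixon's 95% critical value for 6 samples. Cxcr5 was 106 normalized counts in lsNM-R 1 and 51.0 in the next highest NM-R, and that gap was 0.809 of the range over the 6 spleens. Lta was 22.6 in lsNM-R 1 and 10.7 in the next highest, with a gap of 0.650 of the range, resting on 16 reads in lsNM-R 1. Both ends of 9 genes were examined, and chance passes about 1 group in 20. The B cell and T cell marker sums were also highest in lsNM-R 1 among the NM-Rs. Whether the animal or the library differed was not tested.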

How the results depend on the processing

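Against mice, all alternatives kept the direction of the 8 genes. Of these, 7 kept their call in every alternative apart from the replicate block, whose calls are not read. The exception was Nkx2-3. In ssNM-Rs it also passed with the depth class as a term (-0.67, limma adjusted p = 0.00500), and it was -0.63 with a replicate block. The depth term coded mice like the shallow NM-R libraries, so the -0.67 compares mice with ssNM-Rs at the shallow level. Nkx2-3 averaged 185 normalized counts in the shallow NM-R libraries and 250 in the deep ones. Replicate numbers did not pair the samples, since deviations of equally numbered spleens correlated at 0.01, -0.0045 and 0.00076. Between lsNM-Rs and ssNM-Rs, DESeq2 called 57 genes, none of the 9, where limma and edgeR called 0, and the cause was not tested. Uncalled cohort differences changed sign. That of Cxcl13 was -0.062 in edgeR, -0.041 in DESeq2 and -0.052 with the depth class, and that of Ccl19 was 0.13 in edgeR and DESeq2. Leaving out 1 spleen gave -0.33 to 0.37 for Cxcl13, -0.35 to 0.34 for Ccl19, -0.20 to 0.53 for Cxcr5, -0.21 to 0.54 for Ccr7, -0.27 to 0.82 for Lta and -0.0088 to 0.51 for S1pr1. The replicate block took Cxcr5 to 1.33, Ccr7 to 1.16, Lta to 1.57 and Ccl19 to -0.89. Numbers 4, 5 and 6 occur in 1 spleen each, so the block sets lsNM-R 4, lsNM-R 5 and ssNM-R 6 aside. Its cohort difference rests on lsNM-R 1 against ssNM-R 2 and ssNM-R 3, each taken relative to the mouse of the same number. Against marker lists, the median of the list turned S1pr3 against B cell markers to -0.077 (adjusted p = 0.69) and Nkx2-3 against stromal fibroblast markers to 0.90. S1pr3 against B cell markers passed without lsNM-R 1 (0.51, exact permutation adjusted p = 0.0357). Without a mouse, the smallest p is 0.0714, so no such test could pass. Equal upper quartiles moved the all-gene median to 0.11 (log2), and with it 1 more gene of the homing list and 1 more of the lymphotoxin list did not pass. Of all alternative values, 973 were taken as unchanged, 16 reversed, 5 lost and 4 gained a call, and 1 count moved. Unchanged meant the same direction and side of the threshold, or for counts of calls a number close to the main one. Permutation values without a mouse were judged by direction and size only, and their lost calls are not among the 5. Fitting only the compared groups has no separate value for the mean of both cohorts. Depth limits Ccl19 and Lta in NM-Rs.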
